A study of Homo sapiens with 28 samples.

Results

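Aminoacyl-tRNA synthetases are the enzymes that join each amino acid to its transfer RNA, the step that fixes which amino acid a codon stands for. The cytosol and the mitochondrion hold largely separate sets of them, all encoded in the nucleus, and several cytosolic enzymes sit together in the multi-tRNA synthetase complex. Cytosolic synthetase genes are known in mammalian cells as targets of the transcription factor ATF4, which is made when amino acids run short or when the integrated stress response is active. The 35 synthetase genes described here were taken by symbol from the 60286 genes of the count tables. They comprise 19 cytosolic enzymes or subunits and 16 mitochondrial enzymes, whose symbols end in S2, and all 35 were listed under their current symbols. A filter on low counts left 33 of them for testing, 18 cytosolic and 15 mitochondrial.

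RNA was sequenced from HT-1080 cells, a human fibrosarcoma line labelled wild type, in 28 libraries, 4 in each of 7 groups, after treatment overnight. The groups were 10 nM RSL3, 80 µM linoleic acid (LA), 80 µM of its conjugated isomer (CLA18:2), RSL3 with LA at those doses (RSL3+LA), RSL3 with CLA18:2 at those doses (RSL3+CLA18:2), 5 µM of a conjugated acid with a further double bond (CLA18:3), and the vehicle dimethyl sulfoxide (DMSO). RSL3 inhibits GPX4, the enzyme that reduces lipid hydroperoxides, and is used to start ferroptosis, a cell death that comes with lipid peroxidation. The double bonds of LA are separated by a methylene group, while those of CLA18:2 are conjugated. Cells of 1 line were used throughout, and the sample labels write the acid doses in mM where the design text has µM, which is used here. In bulk RNA, a change in the share of cells and a change in RNA per cell cannot be told apart.

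Library totals ran from 16226270 to 24286824 counts, and 8 of 10 mesenchymal markers averaged at least 2 CPM (counts scaled to library size), with THY1 and S100A4 under that level. Of 8 epithelial markers 1 reached it (CLDN4), and none of 8 blood or 4 hepatocyte markers did. Mitochondrially encoded mRNA took 1.26% to 1.49% of counts in DMSO libraries but under 0.6% in 8 treated libraries: replicate 4 of RSL3, replicate 4 of LA, replicates 1 and 3 of CLA18:2, replicates 1, 2 and 4 of RSL3+CLA18:2 and replicate 1 of CLA18:3. Genes detected at a common total numbered 18682 to 20468 in CLA18:3, 19000 to 21286 in RSL3+CLA18:2 and 22679 to 22882 in DMSO. The part of these differences in the results was not tested, and most counts of called synthetases are given below with and without the 8 libraries. Leaving them out keeps 2 libraries of CLA18:2 and 1 of RSL3+CLA18:2, assumed to vary like the others. Levels are TMM-scaled CPM. Each difference is on the log2 scale, between groups of 4 libraries. The SE given with most differences comes from 1 fit of all 28 libraries, which shares the spread over all groups. It is not the spread of only the groups compared. A gene was called at an adjusted p under 0.05 in edgeR's quasi-likelihood test (Benjamini-Hochberg, over 16325 genes). Library values are mostly shown for called genes picked by the smallest p. That their libraries do not overlap largely follows from this choice and adds no support. The share of all genes without overlap was not computed. Counts at an unadjusted p under 0.05 are given without the share of all genes at that threshold, and are not read as a result about the synthetases.

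Promoter sequences are shown first because ATF4 is known to act through a short element. The letters TGATGNAA, the C/EBP-ATF response element that ATF4 binds with its partners, were searched on both strands in RefSeq promoters (GRCh38.p14, from 250 bases before to 50 after a start), of which 30 of the 35 genes had at least 1. A match was found for 7 of 16 cytosolic genes with a promoter (43.8%) and for 1 of 14 mitochondrial genes (7.14%), against 3.62% of the 35116 promoters in the table. A promoter is the unit of that background, and of 21 cytosolic promoters 7 held a match (33.3%). The windows below are written along the gene's strand with the match in capitals, and are shown because responses of the genes that hold them are given further on.
AARS1 (alanyl, chr16:70289675-70289704, minus strand, match from -187): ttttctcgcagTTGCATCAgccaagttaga
CARS1 (cysteinyl, chr11:3057407-3057436, minus strand, match from -2): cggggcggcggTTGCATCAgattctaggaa
GARS1 (glycyl, chr7:30594834-30594863, plus strand, match from -33): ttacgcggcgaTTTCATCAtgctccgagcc
IARS1 (isoleucyl, chr9:92293692-92293721, minus strand, match from -13): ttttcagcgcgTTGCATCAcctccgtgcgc
MARS1 (methionyl, chr12:57488053-57488082, plus strand, match from -4): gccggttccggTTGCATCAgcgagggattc
NARS1 (asparaginyl, chr18:57621804-57621833, minus strand, match from 14): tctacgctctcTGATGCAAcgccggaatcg
TARS1 (threonyl, chr5:33440956-33440985, plus strand, match from 2): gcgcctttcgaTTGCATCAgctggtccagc
YARS2 (mitochondrial tyrosyl, chr12:32756076-32756105, minus strand, match from -197): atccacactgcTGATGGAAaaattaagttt

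Positions count from the RefSeq start, with negative values before it. Of the 7 cytosolic matches 5 began within 33 bases before or 2 bases after the start, in CARS1, GARS1, IARS1, MARS1 and TARS1, and NARS1 had its match at 14. In AARS1 it lay further upstream, at -187. The letters TGACNNNGC, the antioxidant response element bound by NRF2, were found for 4 of 16 cytosolic genes (GARS1, KARS1, TARS1 and WARS1) and 2 of 14 mitochondrial genes (NARS2 and RARS2), against 13.3% of all promoters. In the GARS1 promoter that held both motifs they did not overlap. Letters in a promoter are a description, not evidence that a factor bound there.

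In DMSO cells the cytosolic synthetases were the more abundant set per kilobase of exon. FARSA, the alpha subunit of phenylalanyl-tRNA synthetase, had the highest level at 116 ± 3.28 CPM per kb (SD, n = 4), followed by NARS1 at 83.1 ± 1.27, RARS1, the arginyl enzyme, at 72.3 ± 2.91, and KARS1, the lysyl enzyme, at 66.9 ± 1.97. FARSB, the beta subunit, had 41.2 ± 0.248 CPM per kb, and IARS1 at 40.9 ± 1.88, AARS1 at 39.6 ± 0.548 and EPRS1 at 39.2 ± 1.04 came next, each within the SDs of its neighbour in this order. Although the 2 subunits of phenylalanyl-tRNA synthetase assemble together, their mRNA levels per kb differed. TARS1 at 58.4 ± 1.34 and GARS1 at 46.9 ± 1.11 lay between these sets. SARS1 (37.4 ± 0.602) and MARS1 (37.1 ± 0.498) could not be told from IARS2 within their SDs, and nor could QARS1 (30.0 ± 0.652) from YARS1 (29.2 ± 0.745). LARS1 (27.4 ± 0.658), HARS1 (23.7 ± 0.574) and WARS1 (14.8 ± 0.662) each stood apart. The highest mitochondrial gene was IARS2, the mitochondrial isoleucyl enzyme, at 36.6 ± 1.36 CPM per kb, and RARS2 came next at 18.1 ± 0.213. CARS1 was the lowest of the tested genes at 1.16 ± 0.049 CPM per kb, taken over a long exon union of 10037 bases. HARS2 (12.1 ± 0.432) and YARS2 (10.8 ± 1.13) overlapped, and AARS2 lay below them at 8.63 ± 0.592. From MARS2 (6.55 ± 0.499) through TARS2, CARS2, NARS2 and EARS2 to LARS2 (5.26 ± 0.303), neighbours did not differ beyond their SDs, while WARS2 stood apart at 3.52 ± 0.164. Among the lowest mitochondrial genes FARS2 (2.42 ± 0.239), PARS2 (2.20 ± 0.215) and SARS2 (2.02 ± 0.256) did not differ beyond their spread.

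**Figure D1:**
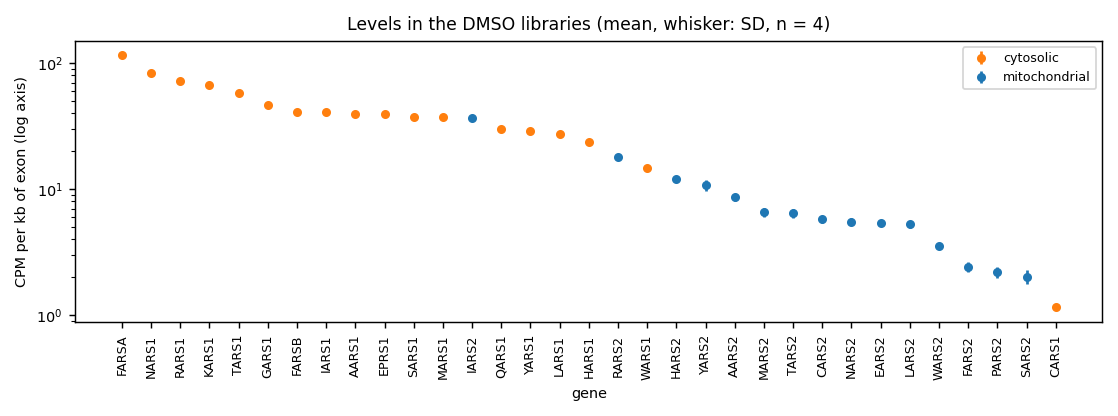
Levels of the 33 tested synthetase genes in DMSO libraries, as CPM per kb of exon on a log axis, with the mean and SD of 4 libraries per point. Cytosolic genes (orange) fill the left of the plot down to HARS1 apart from IARS2, and CARS1 stands at the low end.

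The valyl enzymes were the members that did not pass the low-count filter. VARS1 (chromosome 6, 31777518 to 31795953) had 1 count in all 28 libraries and VARS2 (chromosome 6, 30908242 to 30926459) had 0, where 3 counts in a library would be 0.124 to 0.185 CPM. From VARS2 to VARS1, 36 of 51 matched protein-coding genes (70.6%) had at most 3 counts in all libraries, against 3643 of 19779 elsewhere (18.4%). How reads of this stretch were assigned was not tested, and no level of either gene is drawn from these values. Positions are from GENCODE 29 on GRCh38.

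With CLA18:2 against DMSO, 11 of 18 cytosolic synthetase mRNAs were higher and 2 lower, beside 20.1% of all tested genes called higher and 18.6% called lower. The median difference of the 18 was 0.13, against -0.02 over all genes, and 14 were above 0. Of 15 mitochondrial genes 3 were higher and 3 lower, with a median of 0.05, shares near those of all tested genes. Without the 8 libraries low in mitochondrial mRNA, 8 cytosolic genes were higher and 1, RARS1, was lower, beside 15.3% and 13.7% of all genes tested in that fit, and the calls of HARS1, LARS1, NARS1 and FARSB were lost. Mitochondrial genes then numbered 1 higher and 2 lower. Without the low-count filter 9 cytosolic genes were higher and 0 lower, beside 8.96% and 7.82% of all genes. The largest called rise was in CARS1, with 28.6, 42.6, 15.0 and 20.4 CPM in CLA18:2 libraries and 11.1, 11.7, 11.6 and 12.3 CPM in DMSO libraries (1.20 ± 0.28, adjusted p = 0.000789). All 4 CLA18:2 libraries lay above the highest DMSO library, but their coefficient of variation was 45.1%, against 4.21% in DMSO, the widest of the 33 tested genes in CLA18:2. CARS1 was as low as 10.6 CPM in an LA library and as high as 31.5 CPM in an RSL3+CLA18:2 library.

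WARS1, the tryptophanyl enzyme, had 147, 142, 145 and 144 CPM in CLA18:2 libraries, against 89.7, 92.8, 95.5 and 99.6 CPM in DMSO libraries. The groups stood well apart and the difference was 0.61 ± 0.05 (adjusted p = 7.9e-13). GARS1, the glycyl enzyme, which also supplies mitochondria, had 320, 271, 294 and 289 CPM with CLA18:2 and 196, 192, 190 and 200 CPM with DMSO. Every treated library was again above every control library (0.59 ± 0.05, adjusted p = 1.07e-11). MARS1 had 320, 328, 321 and 340 CPM in CLA18:2 libraries, against 264, 256, 261 and 261 CPM in DMSO libraries (0.33 ± 0.04, adjusted p = 3.98e-09). EPRS1, a bifunctional enzyme for glutamate and proline, had 302, 268, 292 and 257 CPM with CLA18:2 and 208, 210, 217 and 220 CPM with DMSO (0.39 ± 0.05, adjusted p = 8.71e-08). Neither of these genes overlapped between the groups. AARS1 rose by 0.35 ± 0.06 and IARS1 by 0.37 ± 0.06, while SARS1, the seryl enzyme, rose by 0.29 ± 0.04.

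Smaller rises depended on single libraries. HARS1, the histidyl enzyme, was called at 0.11 ± 0.04 with an adjusted p = 0.0498, and lost the call without any 1 of 7 of the 8 libraries compared, all but DMSO replicate 1 (adjusted p 0.0511 to 0.116). NARS1, called at 0.10 ± 0.04, lost it without DMSO replicate 2, 3 or 4 or CLA18:2 replicate 1 or 3 (0.0655 to 0.127). LARS1, the leucyl enzyme, was called at 0.14 ± 0.04, and without CLA18:2 replicate 3 its adjusted p was 0.0594.

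A pair of cytosolic genes moved the other way. RARS1 had 230, 212, 232 and 228 CPM in CLA18:2 libraries and 243, 243, 262 and 241 CPM in DMSO libraries, and fell by 0.14 on the log2 scale (SE 0.04, adjusted p = 0.0137). FARSB had 126, 125, 130 and 134 CPM with CLA18:2 and 138, 140, 139 and 139 CPM with DMSO, and fell by 0.11 (SE 0.04, adjusted p = 0.0158). All 4 treated libraries were below the lowest control in both genes, yet RARS1 lost its call without DMSO replicate 3 or CLA18:2 replicate 2 (0.0755 to 0.0847), and FARSB without CLA18:2 replicate 2 (0.0606). FARSA had a difference of -0.13 that did not pass the test.

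Among mitochondrial enzymes, MARS2, the methionyl enzyme, had 13.0, 14.3, 12.6 and 13.0 CPM in CLA18:2 libraries, against 20.8, 21.1, 17.8 and 19.5 CPM in DMSO libraries (-0.58 ± 0.12, adjusted p = 0.000107). NARS2, the asparaginyl enzyme, had 13.9, 12.1, 13.1 and 11.8 CPM with CLA18:2 and 16.7, 17.4, 19.0 and 16.5 CPM with DMSO (-0.45 ± 0.11, adjusted p = 0.00129). Both were thus lower in every treated library, while their cytosolic counterparts MARS1 and NARS1 were called higher. FARS2, the phenylalanyl enzyme, had 15.4, 15.1, 16.3 and 14.3 CPM in CLA18:2 libraries and 11.1, 11.9, 13.2 and 10.6 CPM in DMSO libraries (0.38 ± 0.10, adjusted p = 0.00327), and so moved opposite to the cytosolic subunit FARSB. RARS2, the arginyl enzyme, had 55.4, 51.1, 53.5 and 53.1 CPM with CLA18:2 and 46.0, 46.6, 45.3 and 46.3 CPM with DMSO (0.21 ± 0.07, adjusted p = 0.0167), again opposite to RARS1. Without CLA18:2 replicate 1 the adjusted p of RARS2 was 0.0527. AARS2, the alanyl enzyme, rose by 0.21 ± 0.07 and CARS2, the cysteinyl enzyme, fell by 0.18 (SE 0.07), and leaving out single libraries lost the call of AARS2 in 3 of 8 cases and of CARS2 in 6 of 8. CLA18:2 replicate 1 was one of those libraries for both, and without it 3 mitochondrial genes in place of 6 were called.

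**Figure D2:**
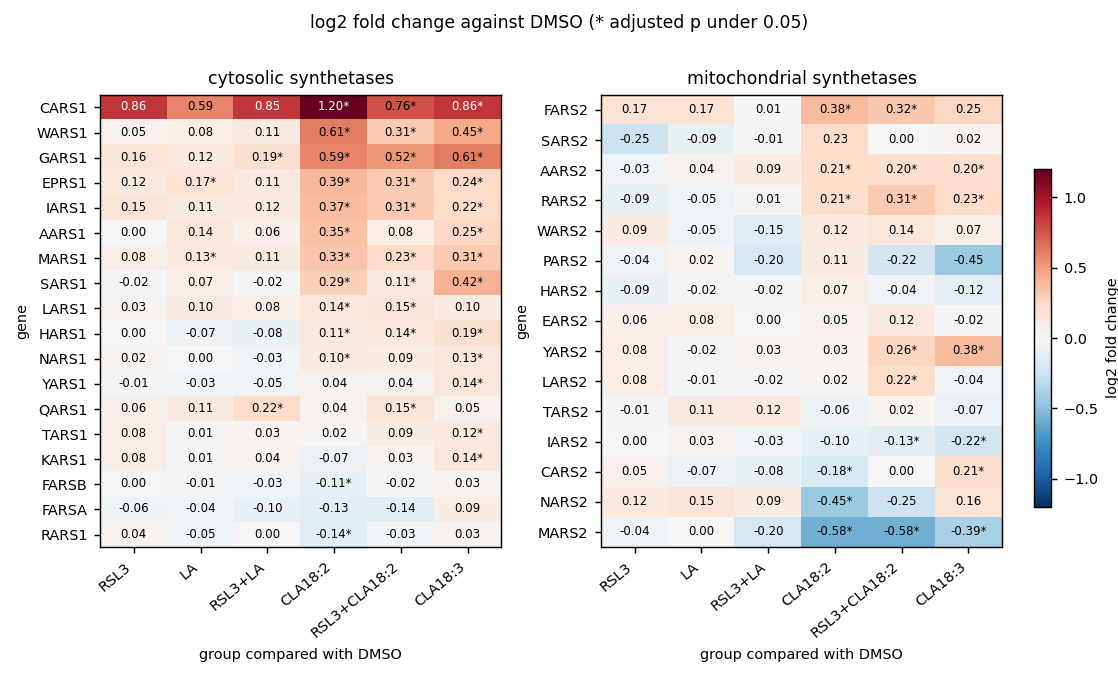
Log2 fold changes of the 18 cytosolic (left) and 15 mitochondrial (right) genes in each treated group against DMSO, with red for higher, blue for lower and an asterisk for an adjusted p under 0.05. CLA18:2, RSL3+CLA18:2 and CLA18:3 carry most asterisks, and MARS2 is blue in all 3 at -0.58, -0.58 and -0.39.

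CLA18:3, given at 5 µM, was compared with DMSO alone because its dose differs from those of the other acids. Here 13 of 18 cytosolic genes were higher and 0 lower by edgeR, DESeq2 or limma voom, beside 19.1% of all tested genes called higher and 16.7% called lower. All 18 differences were above 0, so none was lower at an unadjusted p under 0.05, with a median of 0.17 against 0.00 over all genes. Mitochondrial genes numbered 4 higher and 2 lower of 15, with a median of 0.02. With the 8 libraries left out, 10 cytosolic genes were higher and 0 lower, and 3 mitochondrial genes were higher and 2 lower, beside 16.2% and 17.7% of all genes. GARS1 had 298, 304, 306 and 281 CPM in CLA18:3 libraries, against the DMSO values above (0.61 ± 0.05, adjusted p = 1.08e-11). SARS1 had 192, 195, 186 and 194 CPM with CLA18:3 and 146, 144, 143 and 140 CPM with DMSO (0.42 ± 0.04, adjusted p = 7.13e-10). Neither gene overlapped between the groups. WARS1 had 130, 128, 133 and 126 CPM with CLA18:3, 0.45 ± 0.05 above DMSO (adjusted p = 2.01e-09), and MARS1 had 330, 320, 320 and 321 CPM, 0.31 ± 0.04 above it (adjusted p = 2.89e-08). These libraries too lay clear of all DMSO libraries.

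The other called cytosolic genes in CLA18:3 were CARS1 at 0.86 ± 0.29, AARS1 at 0.25 ± 0.06, EPRS1 at 0.24 ± 0.05, IARS1 at 0.22 ± 0.06 and HARS1 at 0.19 ± 0.04, and KARS1, YARS1, NARS1 and TARS1 at 0.12 to 0.14. CARS1 lost its call without CLA18:3 replicate 3 (adjusted p = 0.0828), TARS1 without DMSO replicate 4 (0.0673), NARS1 without DMSO replicate 2 or 4, and KARS1 without DMSO replicate 1, 2 or 4 or CLA18:3 replicate 3. YARS2 had 34.0, 31.7, 29.5 and 25.4 CPM in CLA18:3 libraries, against 25.2, 19.8, 24.7 and 23.0 CPM in DMSO libraries (0.38 ± 0.08, adjusted p = 0.00051). IARS2 had 136, 127, 124 and 137 CPM with CLA18:3 and 148, 150, 151 and 161 CPM with DMSO (-0.22 ± 0.05, adjusted p = 0.000333). MARS2 had 14.5, 17.0, 12.8 and 15.7 CPM in CLA18:3 libraries, all below the 17.8 CPM of the lowest DMSO library (-0.39 ± 0.11, adjusted p = 0.00627). As with CLA18:2, then, MARS2 was lower while MARS1 was higher. RARS2 had 60.7, 55.6, 51.1 and 47.8 CPM with CLA18:3, above all DMSO libraries (0.23 ± 0.07, adjusted p = 0.0117), but without CLA18:3 replicate 1 its adjusted p was 0.0879. AARS2 (0.20 ± 0.07) and CARS2 (0.21 ± 0.07) were called higher, and each lost the call in 5 of the 8 cases in which 1 library was left out. CARS2 was called lower with CLA18:2 and higher with CLA18:3, at doses that differ, so the 2 values stand side by side without a test.

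**Figure D3:**
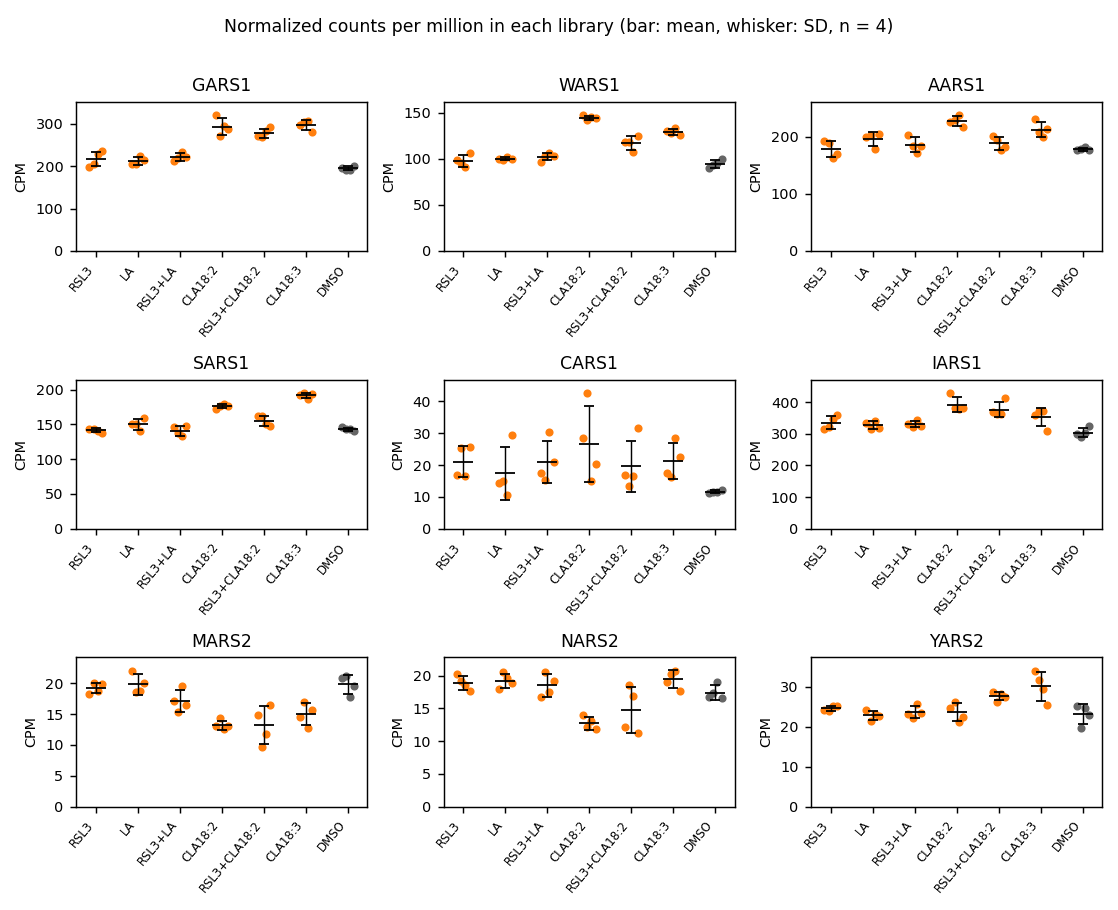
CPM of 9 synthetase genes in each of the 28 libraries by group, with the group mean as a bar and the SD as a whisker and DMSO in grey at the right. GARS1 and WARS1 libraries of CLA18:2 and CLA18:3 lie above all DMSO libraries, CARS1 is spread within each treated group, and MARS2 is lowest in the groups with CLA18:2 or CLA18:3.

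LA at 80 µM moved few of the genes. Against DMSO 2 of 18 cytosolic genes were higher and 0 lower, beside 4.91% of all tested genes called higher and 3.41% called lower. At an unadjusted p under 0.05 there were 7 higher and 0 lower, with no share of all genes at that threshold beside them. No mitochondrial gene was called by edgeR, DESeq2 or limma voom, or had an unadjusted p under 0.05. After removal of the 8 libraries the counts were again 2 cytosolic genes higher, 0 lower and 0 mitochondrial, with no share of all genes from that fit beside them. EPRS1 had 238, 233, 252 and 241 CPM in LA libraries (0.17 ± 0.05 above DMSO, adjusted p = 0.0243), and MARS1 had 295, 288, 274 and 280 CPM (0.13 ± 0.04, adjusted p = 0.0259). Their LA and DMSO libraries did not overlap, but EPRS1 lost its call in 6 and MARS1 in 5 of 8 cases in which 1 library was left out, among them DMSO replicate 2, DMSO replicate 3 and LA replicate 1 for both. With both lost, 0 cytosolic genes were called when any 1 of those 3 libraries was left out.

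The isomers LA and CLA18:2 were set against each other at 80 µM in 2 pairs, without and with RSL3. Without RSL3, CLA18:2 was higher than LA in 8 of 18 cytosolic genes and lower in 1, beside 15.6% of all tested genes called higher and 14.6% called lower. Mitochondrial genes numbered 1 higher and 3 lower of 15. Without the 8 libraries 8 cytosolic genes were higher and 0 lower, with EPRS1 and FARSB lost and CARS1 gained, and 1 mitochondrial gene was higher and 2 lower, beside 10.8% and 9.29% of all genes. WARS1 in LA libraries had 99.4, 98.2, 102 and 99.5 CPM, so that CLA18:2 was 0.53 ± 0.05 above LA (adjusted p = 4.3e-11). GARS1 was 0.47 ± 0.05 higher with CLA18:2 than with LA, whose libraries had 206, 205, 224 and 214 CPM (adjusted p = 4.11e-09). For MARS1 the difference was 0.20 ± 0.04 (adjusted p = 3.87e-05). SARS1 had 172, 176, 179 and 176 CPM with CLA18:2 and 151, 151, 141 and 159 CPM with LA (0.22 ± 0.04, adjusted p = 6.48e-05). The CLA18:2 libraries lay above all LA libraries in each of these 4 genes.

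NARS2 had 18.0, 20.5, 19.6 and 18.9 CPM in LA libraries and was lower with CLA18:2 (-0.60 ± 0.11, adjusted p = 5.66e-05). MARS2 had 22.0, 18.5, 18.7 and 20.1 CPM in LA libraries and was also lower with CLA18:2 (-0.58 ± 0.11, adjusted p = 0.000137). RARS2, with 45.8, 44.8, 43.5 and 43.4 CPM in LA libraries, was higher with CLA18:2 (0.26 ± 0.07, adjusted p = 0.00374). No CLA18:2 library overlapped with the LA libraries in these 3 genes. IARS2 had 145, 130, 146 and 146 CPM with CLA18:2 and 162, 149, 157 and 156 CPM with LA (-0.14 ± 0.05, adjusted p = 0.021), and lost its call without LA replicate 1 or 3 or CLA18:2 replicate 2 (0.0796 to 0.129). FARSB, the cytosolic exception, was lower with CLA18:2 than with LA, whose libraries had 139, 140, 136 and 137 CPM (-0.10 ± 0.04, adjusted p = 0.0353), and lost the call in 7 of 8 cases, all but the one without CLA18:2 replicate 4. For genes not called, the 95% interval of the isomer difference was -0.07 to 0.09 in TARS1, -0.04 to 0.14 in LARS1 and 0.00 to 0.15 in YARS1. CARS1 had a wide one, 0.06 to 1.17, with an adjusted p = 0.092, and was called without the 8 libraries (1.25, adjusted p = 0.000265). That fit keeps 2 CLA18:2 libraries, replicate 4 and replicate 2, which had the highest CARS1 level of the group.

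**Figure D4:**
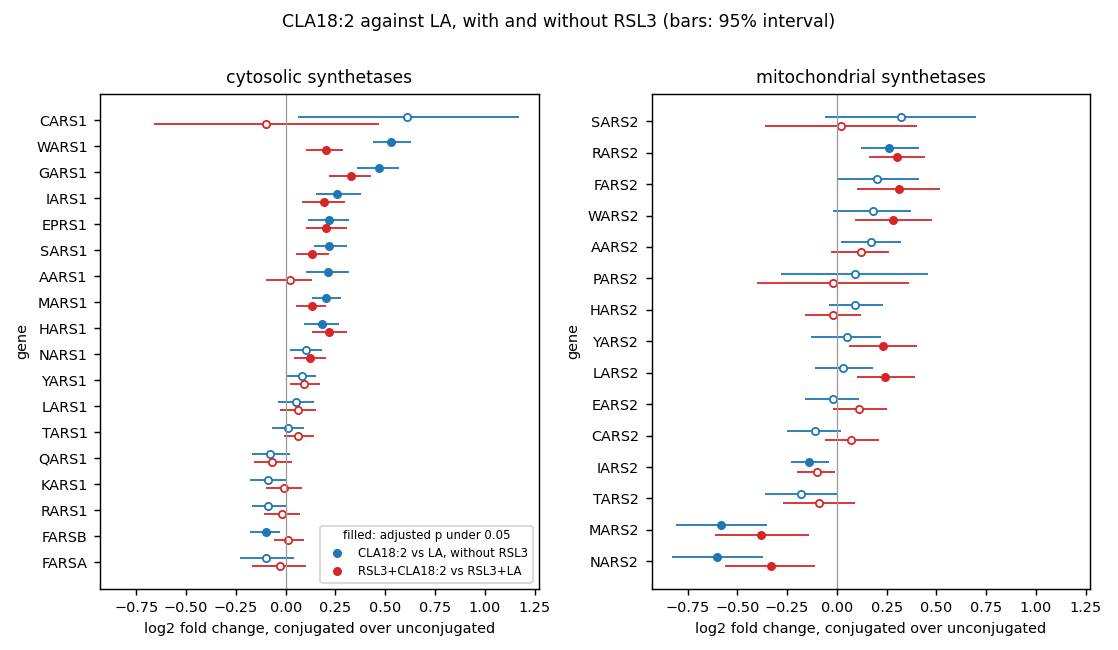
Log2 fold change of the conjugated over the unconjugated isomer at 80 µM for each gene, without RSL3 (blue) and with RSL3 (red), with 95% intervals and filled points for an adjusted p under 0.05. WARS1 lies at 0.53 without RSL3 and 0.20 with it, and MARS2 and NARS2 lie left of 0 in both.

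With RSL3 in both arms, RSL3+CLA18:2 was higher than RSL3+LA in 8 of 18 cytosolic genes and lower in 0, beside 14.1% and 12% of all tested genes, and 5 mitochondrial genes were higher and 2 lower. No cytosolic gene was lower by DESeq2, by limma voom or at an unadjusted p under 0.05. With the 8 libraries left out 1 cytosolic gene, GARS1, was higher and 0 lower, and 1 mitochondrial gene was higher and 1 lower, beside 8.19% and 7.74% of all genes. GARS1 had 271, 268, 282 and 292 CPM with RSL3+CLA18:2 and 212, 220, 234 and 222 CPM with RSL3+LA (0.33 ± 0.05, adjusted p = 6.1e-06). HARS1 had 214, 204, 200 and 203 CPM with RSL3+CLA18:2 and 173, 161, 177 and 195 CPM with RSL3+LA (0.22 ± 0.04, adjusted p = 0.000329). WARS1 had 118, 118, 107 and 125 CPM with RSL3+CLA18:2 and 96.8, 103, 106 and 103 CPM with RSL3+LA (0.20 ± 0.05, adjusted p = 0.00216). None of these overlapped, though WARS1 was close, with a difference of 0.06 and an adjusted p of 0.603 without the 8 libraries. EPRS1 had 265, 258, 253 and 281 CPM with RSL3+CLA18:2 and 221, 233, 235 and 230 CPM with RSL3+LA (0.20 ± 0.05, adjusted p = 0.00268).

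RARS2 had 48.2, 55.5, 64.6 and 59.7 CPM with RSL3+CLA18:2 and 44.0, 48.1, 43.6 and 49.8 CPM with RSL3+LA (0.30 ± 0.07, adjusted p = 0.00151), and 1 RSL3+LA library lay above the lowest RSL3+CLA18:2 library. LARS2, the leucyl enzyme, had 42.3, 39.7, 41.5 and 44.3 CPM with RSL3+CLA18:2 and 33.8, 34.7, 37.2 and 35.9 CPM with RSL3+LA (0.24 ± 0.07, adjusted p = 0.00832). MARS2 had 14.8, 9.59, 11.8 and 16.5 CPM with RSL3+CLA18:2 and 17.2, 15.4, 19.5 and 16.5 CPM with RSL3+LA (-0.38 ± 0.12, adjusted p = 0.014). Here the arms overlapped for MARS2, and its call was lost without RSL3+LA replicate 3 or RSL3+CLA18:2 replicate 2 or 3. NARS2 had 12.1, 18.5, 16.8 and 11.3 CPM with RSL3+CLA18:2 and 16.7, 20.5, 17.5 and 19.1 CPM with RSL3+LA (-0.33 ± 0.11, adjusted p = 0.0234), also overlapping, and lost its call without RSL3+LA replicate 2 or 4 or RSL3+CLA18:2 replicate 1 or 4. Leaving out any 1 library brought the 7 mitochondrial calls to 3 to 5, with 4 without RSL3+LA replicate 2 or 4 and 3 without RSL3+CLA18:2 replicate 3. Intervals of genes not called were -0.10 to 0.13 in AARS1, -0.10 to 0.08 in KARS1 and -0.06 to 0.09 in FARSB.

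RSL3 alone at 10 nM gave no called synthetase gene. Against DMSO 0 of 18 cytosolic and 0 of 15 mitochondrial genes were called by edgeR, DESeq2 or limma voom. Of all tested genes 0.178% were called higher and 0.0245% lower by edgeR. At an unadjusted p under 0.05 there were 6 cytosolic and 0 mitochondrial genes, with no share of all genes at that threshold beside them. The counts were also 0 without the 8 libraries. GARS1 had 199, 206, 228 and 235 CPM in RSL3 libraries, a difference of 0.16 from DMSO with a 95% interval of 0.05 to 0.26 (adjusted p = 0.398). CARS1 had 17.0, 25.3, 16.6 and 25.6 CPM in RSL3 libraries, all above the highest DMSO library, and a difference of 0.86 with an interval of 0.28 to 1.44 (adjusted p = 0.433). It passed the test without the low-count filter (adjusted p = 1.24e-12) and in a fit of those groups alone (0.00424), with a difference of 0.85 in each. Over all comparisons, only CARS1 and FARSA gained calls without the filter, while other members lost calls. Why CARS1 depended so much on the filter was not tested, so the lower p is no firmer evidence of a rise.

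RSL3+LA gave 2 cytosolic genes higher than DMSO and 0 lower, beside 5.43% and 4.81% of all tested genes, and no mitochondrial gene called by edgeR, DESeq2 or limma voom or with an unadjusted p under 0.05. At an unadjusted p under 0.05, 7 cytosolic genes were higher and 0 lower, with no share of all genes at that threshold beside them. DESeq2 and limma voom called none lower. After removal of the 8 libraries 3 cytosolic genes were higher, 0 lower and 0 mitochondrial genes called, with CARS1 gained (0.85, adjusted p = 0.00413). No share of all genes from that fit is set beside these counts. QARS1, the glutaminyl enzyme, had 165, 149, 179 and 163 CPM with RSL3+LA and 142, 143, 137 and 143 CPM with DMSO (0.22 ± 0.05, adjusted p = 0.00159). GARS1 was 0.19 ± 0.05 above DMSO (adjusted p = 0.012), and without RSL3+LA replicate 3 its adjusted p was 0.069, which left 1 gene called. Both were above all DMSO libraries. Against LA alone, RSL3+LA had 0 called of 33 by edgeR, DESeq2 or limma voom, with 2 cytosolic and 0 mitochondrial genes at an unadjusted p under 0.05, beside 0.0368% of all tested genes called higher and 0.0123% called lower. Against RSL3 alone, 1 cytosolic gene was higher, beside 3.78% of all tested genes called higher and 5.8% called lower. This was QARS1, with 141, 147, 149 and 151 CPM in RSL3 libraries (0.16 ± 0.05, adjusted p = 0.0286). Without the 8 libraries there were again 0 genes called against LA and 1 cytosolic gene higher against RSL3. The RSL3+LA and RSL3 libraries overlapped, and 0 genes were called without RSL3 replicate 1 or 2 or RSL3+LA replicate 1 or 3.

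RSL3+CLA18:2 gave 10 cytosolic genes higher than DMSO and 0 lower, beside 18.6% of all tested genes called higher and 16.6% called lower. DESeq2 and limma voom called none lower, and 1 was lower at an unadjusted p under 0.05, namely FARSA. FARSA was called lower without the low-count filter (-0.15, adjusted p = 0.0301) and without the 8 libraries (-0.29, adjusted p = 0.0226). Mitochondrial genes numbered 5 higher and 2 lower. With the 8 libraries left out, which is to say with 1 RSL3+CLA18:2 library left, 4 cytosolic genes were higher and 1 lower, and 1 mitochondrial gene was higher and 1 lower, beside 11.8% of all genes in each direction. Without the filter 6 cytosolic genes were higher and 1 lower, beside 7.49% and 7.91%. GARS1 stood 0.52 ± 0.05 above DMSO (adjusted p = 3.85e-10), EPRS1 0.31 ± 0.05 (adjusted p = 8.31e-06), WARS1 0.31 ± 0.05 (adjusted p = 3.25e-06) and MARS1, with 315, 295, 303 and 313 CPM, 0.23 ± 0.04 (adjusted p = 4.25e-06). All 4 genes were above every DMSO library in every RSL3+CLA18:2 library, and without the 8 libraries WARS1 had a difference of 0.17 with an adjusted p of 0.0914. MARS2 differed by -0.58 ± 0.11 (adjusted p = 0.000118), with RSL3+CLA18:2 libraries all below the lowest DMSO library, and RARS2 by 0.31 ± 0.07 (adjusted p = 0.000648). LARS2, with 36.3, 32.9, 36.8 and 37.7 CPM in DMSO libraries, was 0.22 ± 0.07 higher with RSL3+CLA18:2 (adjusted p = 0.0113). FARS2 had 14.3, 14.9, 15.2 and 14.1 CPM with RSL3+CLA18:2 and was 0.32 ± 0.10 above DMSO (adjusted p = 0.0155). IARS2 had 141, 131, 145 and 138 CPM with RSL3+CLA18:2, all below the DMSO libraries (-0.13 ± 0.05, adjusted p = 0.0256). Leaving out DMSO replicate 4 lost the calls of FARS2 (0.0645) and IARS2, among others, and left 4 mitochondrial genes called, while LARS2 lost its call without DMSO replicate 2 (0.0654).

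Against RSL3 alone, RSL3+CLA18:2 was higher in 8 cytosolic genes and lower in 0, beside 15.9% and 14.5% of all tested genes, with 2 mitochondrial genes higher and 3 lower. None of the cytosolic genes was lower by DESeq2 or limma voom or at an unadjusted p under 0.05. After removal of the 8 libraries 1 cytosolic gene (GARS1) was higher and 0 lower, and 1 mitochondrial gene was higher and 1 lower, beside 9.68% and 9.62% of all genes. GARS1 was 0.36 ± 0.05 higher (adjusted p = 8.6e-07), and WARS1, with 98.5, 95.5, 91.3 and 106 CPM in RSL3 libraries, 0.25 ± 0.05 higher (adjusted p = 7.44e-05). MARS1, with 283, 271, 262 and 285 CPM in RSL3 libraries, was 0.15 ± 0.04 higher (adjusted p = 0.00124), and EPRS1, with 211, 226, 243 and 250 CPM, 0.18 ± 0.05 higher (adjusted p = 0.00503). The libraries of the arms did not overlap in these 4 genes, which were picked for their small p. WARS1 was the closest, at 107 CPM in RSL3+CLA18:2 and 106 CPM in RSL3. RARS2, with 41.8, 45.0, 43.4 and 43.0 CPM in RSL3 libraries, was 0.40 ± 0.07 higher (adjusted p = 3.52e-05). MARS2, with 18.2, 20.0, 18.8 and 19.8 CPM in RSL3 libraries, was lower (-0.54 ± 0.12, adjusted p = 0.000379). AARS2 had 45.0, 41.3, 43.3 and 41.3 CPM with RSL3+CLA18:2 and 36.6, 35.8, 36.9 and 36.4 CPM with RSL3 (0.23 ± 0.07, adjusted p = 0.0144). NARS2, with 20.3, 19.1, 18.6 and 17.7 CPM in RSL3 libraries, was lower (-0.37 ± 0.11, adjusted p = 0.00961), overlapping with RSL3+CLA18:2, and lost its call without RSL3+CLA18:2 replicate 1 or 4. The mitochondrial count was 3 without RSL3+CLA18:2 replicate 4.

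RSL3 added to CLA18:2 gave 3 cytosolic genes lower and 0 higher than CLA18:2 alone by edgeR, with none higher by DESeq2 or limma voom and 4 higher at an unadjusted p under 0.05, beside 5.24% of all tested genes called lower and 6.65% called higher. Leaving out the 8 libraries keeps 1 RSL3+CLA18:2 library, replicate 3, which had the lowest WARS1 and AARS1 levels of its group. AARS1, SARS1 and WARS1 again had negative differences in that fit, which adds little for this reason. WARS1 had 118, 118, 107 and 125 CPM with RSL3+CLA18:2 and 147, 142, 145 and 144 CPM with CLA18:2 (-0.31 ± 0.05, adjusted p = 2.63e-05). AARS1 had 201, 194, 177 and 182 CPM with RSL3+CLA18:2 and 225, 229, 237 and 217 CPM with CLA18:2 (-0.27 ± 0.06, adjusted p = 0.00091). SARS1 had 162, 162, 150 and 148 CPM with RSL3+CLA18:2 and 172, 176, 179 and 176 CPM with CLA18:2 (-0.18 ± 0.04, adjusted p = 0.00312). In all 3 genes every library with RSL3 was below every library without it, which adds no support beyond the calls. No mitochondrial gene was called by edgeR, 3 had an unadjusted p under 0.05, and DESeq2 and limma voom each called 1, LARS2 at 0.20. Without RSL3+CLA18:2 replicate 4 or CLA18:2 replicate 2, 1 mitochondrial gene was also called by edgeR.

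Whether the RSL3 response itself differed was tested by interactions. The response to RSL3 in CLA18:2 cells was below that in DMSO cells for WARS1 (-0.36 ± 0.07, adjusted p = 0.00138) and AARS1 (-0.27 ± 0.08, adjusted p = 0.0439), 2 of 33 genes beside 3.55% of all tested genes called. AARS1 lost this call in 12 of the 16 cases in which 1 library was left out, among them every DMSO library, RSL3 replicates 1 and 2, RSL3+CLA18:2 replicates 2 to 4 and CLA18:2 replicates 1 to 3, and without the 8 libraries its adjusted p was 0.0829. Without any 1 DMSO library, RSL3 replicate 2, RSL3+CLA18:2 replicate 2 or 3 or CLA18:2 replicate 1, 1 gene was called in all, and without RSL3+CLA18:2 replicate 4 there were 4. CARS1 had a difference of -1.30 ± 0.40 with an adjusted p of 0.0593. Between the isomers, the RSL3 response with CLA18:2 was below that with LA for WARS1 (-0.34 ± 0.07, adjusted p = 0.00248), 1 gene beside 3.63% of all tested genes. With the 8 libraries left out, 2 CLA18:2 libraries and 1 RSL3+CLA18:2 library remained. WARS1 was again lower in both interactions, but the RSL3+CLA18:2 library left, replicate 3, had the lowest WARS1 level of its group. CARS1 differed by -1.69 and -1.59. For RSL3 with LA, 0 of 33 genes differed by edgeR, DESeq2 or limma voom, beside 0.0245% of all tested genes called, and 1 cytosolic and 1 mitochondrial gene had an unadjusted p under 0.05. None was called without the 8 libraries either.

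The summed cytosolic level was higher with the conjugated acids, and the summed mitochondrial level stayed within 127 to 140 CPM per kb in all libraries. Per library, CPM per kb summed to 882 ± 16.5 over cytosolic genes in CLA18:2 and 918 ± 11.3 in CLA18:3, against 805 ± 5.28 in DMSO (SD, n = 4 each). Mitochondrial sums were 131 ± 2.39 in CLA18:2, 132 ± 3.82 in CLA18:3 and 131 ± 0.719 in DMSO. The cytosolic over mitochondrial ratio averaged 6.95 ± 0.154 for CLA18:3, 6.74 ± 0.104 for CLA18:2 and 6.47 ± 0.311 for RSL3+CLA18:2. It was 6.33 ± 0.144 for RSL3, 6.31 ± 0.119 for RSL3+LA and 6.24 ± 0.123 for LA, against 6.14 ± 0.0171 for DMSO. All CLA18:2 libraries (6.65 to 6.86) and CLA18:3 libraries (6.85 to 7.18) were above the highest DMSO library (6.16), while RSL3+CLA18:2 libraries spread from 6.07 to 6.79. A ratio of sums is weighted to abundant genes and was not tested.

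**Figure D5:**
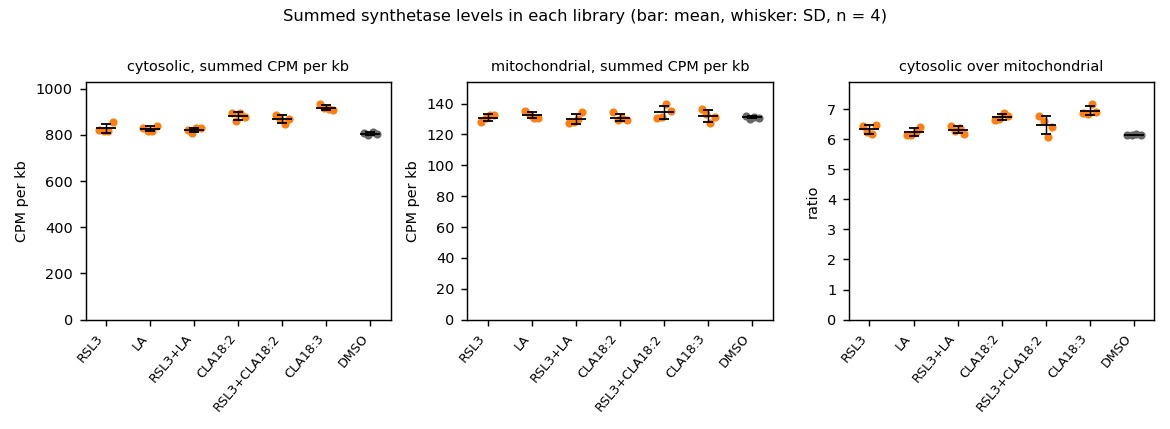
Summed CPM per kb of the cytosolic genes (left) and the mitochondrial genes (middle) and their ratio (right) in each library, with the group mean as a bar, the SD as a whisker and DMSO in grey. The cytosolic sum averages 918 in CLA18:3 and 805 in DMSO, while mitochondrial sums stay between 127 and 140 in all 28 libraries.

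For the same amino acid, the cytosolic change exceeded the mitochondrial one in 11 of 14 pairs with CLA18:2 against DMSO, with a median gap of 0.10, and in 9 of 14 with CLA18:3 (median gap 0.16). It did so in 8 of 14 with RSL3+CLA18:2 and with RSL3, in 7 of 14 with LA and in 5 of 14 with RSL3+LA, with median gaps of 0.08, 0.06, 0.04 and -0.02 in that order. FARS2 stands in 2 of the 14 pairs, against FARSA and against FARSB, and the 6 comparisons share their DMSO libraries. The widest gaps with CLA18:2 were CARS1 over CARS2 (1.38), MARS1 over MARS2 (0.90) and NARS1 over NARS2 (0.56), and the reverse held for FARSA and FARSB against FARS2 (-0.51 and -0.49) and for RARS1 against RARS2 (-0.35). Within the cytosol, 4 of 7 members of the multi-tRNA synthetase complex were higher and 1 lower with CLA18:2, and 7 of 11 outside it were higher and 1 lower, beside 20.1% and 18.6% of all tested genes. With CLA18:3 the counts higher were 4 of 7 and 9 of 11, beside 19.1% of all tested genes. Within the complex EPRS1, IARS1, MARS1 and LARS1 were higher while RARS1 was lower with CLA18:2, and KARS1 and QARS1 were not called.

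Cytosolic genes with TGATGNAA at a promoter, whose windows are printed above, had a median difference of 0.35 with CLA18:2 against DMSO, and 6 of 7 were called higher. Of the 9 with a promoter and no match 4 were higher and 2 lower, with a median of 0.04, beside 20.1% of all tested genes called higher and 18.6% called lower. With CLA18:3 the counts higher were 7 of 7 (median 0.25) and 5 of 9 (median 0.14), and with RSL3+CLA18:2 they were 4 of 7 (median 0.23) and 5 of 9 (median 0.11), beside 19.1% and 18.6% of all tested genes called higher with CLA18:3 and with RSL3+CLA18:2. The 4 cytosolic genes with TGACNNNGC at a promoter, of which GARS1 and TARS1 hold both motifs, had a median of 0.31 with CLA18:2, against 0.20 for the 12 without it, and 2 of 4 against 8 of 12 were higher. With CLA18:3 these were 4 of 4 (median 0.30) and 8 of 12 (median 0.21), and with RSL3+CLA18:2 2 of 4 (median 0.20) and 7 of 12 (median 0.13). Both motifs thus went with a higher median in these comparisons. For TGACNNNGC the share called higher went the other way with CLA18:2 and with RSL3+CLA18:2, though not with CLA18:3. Neither split was tested. WARS1, EPRS1 and SARS1 rose without TGATGNAA in this window, and TARS1 held one and differed by 0.02 with CLA18:2.

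Other genes of the ATF4 and amino acid response, 15 in the list used, had larger median differences than the synthetases. With CLA18:2 against DMSO 13 were higher and 0 lower (median 0.77), with CLA18:3 14 and 0 (median 0.74), with RSL3+CLA18:2 12 and 0 (median 0.49), with LA 5 and 0, and with RSL3 1 and 0. The shares of all tested genes called higher were 20.1%, 19.1%, 18.6%, 4.91% and 0.178% in that order. After removal of the 8 libraries the counts higher were 13 with CLA18:2, 14 with CLA18:3, 4 with LA and 1 with RSL3, with 0 lower in each. Shares of all genes from that fit are given above for CLA18:2 and CLA18:3 but not for LA and RSL3. With all libraries, in the 5 comparisons with DMSO, none of the 15 was lower by DESeq2, by limma voom or at an unadjusted p under 0.05. ATF4 mRNA itself had 433, 422, 431 and 442 CPM with CLA18:2, against 333, 321, 347 and 323 CPM with DMSO (0.38 ± 0.04, adjusted p = 1.3e-09). SLC7A11, the cystine transporter subunit, stood 3.40 ± 0.09 above DMSO (adjusted p = 1.19e-24). With RSL3+CLA18:2 against CLA18:2, 9 of the 15 were lower and 1 higher, beside 5.24% and 6.65% of all tested genes. Fewer were lower without the 8 libraries, which leaves 1 RSL3+CLA18:2 library. Among the 9 lower ones was SESN2, a leucine sensor, at -0.55 ± 0.06 (adjusted p = 2.35e-07). The 15 differences ran from -1.1 to 0.15, with a median of -0.22. ATF4 mRNA stood 0.44 ± 0.04 above DMSO with RSL3+CLA18:2 and 0.38 ± 0.04 above it with CLA18:2. These data hold RNA only, so the level of ATF4 protein is not known. Whether the falls of WARS1, AARS1 and SARS1 when RSL3 was added to CLA18:2 are related to these was not tested.

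Of 12 partners of the synthetases, 1 was higher and 2 lower with CLA18:2: GATB, a subunit of the mitochondrial amidotransferase that makes glutaminyl-tRNA, at 0.33 ± 0.09, AIMP2, a scaffold of the multi-tRNA synthetase complex, at -0.34 ± 0.09, and TARS3, a threonyl-tRNA synthetase-like gene, at -0.48 ± 0.10. These are smaller shares than the 20.1% and 18.6% of all tested genes. With CLA18:3, 3 were higher, beside 19.1% of all tested genes, namely the complex scaffold EEF1E1 (0.34 ± 0.13), MTFMT (0.39 ± 0.09), which formylates the mitochondrial initiator tRNA, and DTD1 (0.33 ± 0.12), which removes D-amino acids from tRNA. Of 9 tested factors of mitochondrial translation 2 were higher and 1 lower with CLA18:2, with MTIF3, an initiation factor, at 0.46 ± 0.11. Of 9 tested cytosolic translation factors 1 was higher and 2 lower with CLA18:2. Both sets of counts are near the 20.1% and 18.6% of all tested genes. With CLA18:3, 5 of the 9 cytosolic factors were higher, beside 19.1% of all tested genes, among them EEF1B2, an elongation factor subunit, at 0.43 ± 0.05.

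Some members share their exons with other genes, and whether counting used the strand is not given in the sources used here. For MARS1, 12.44% of exon length is overlapped on the opposite strand, in part by DDIT3, whose mRNA was 2.03 ± 0.15 above DMSO with CLA18:2, and for WARS1 10.57% is overlapped, in part by WDR25. HARS1 and HARS2 overlap each other on opposite strands. SARS2 has 46.18% of its exon length overlapped on the same strand, so its low counts are uncertain. What these overlaps add to the values was not tested.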

How the data were processed

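Raw gene counts for 28 libraries were used as the authors deposited them. The submitters' processing notes list featureCounts, HISAT, SAMtools and DESeq2 with the build hg38, and their versions, the annotation and the strand setting are not given in the sources used here. Per the labels, total RNA was sequenced, and replicates are described as independent. Where they share a culture stock or day, p values measure only the spread between these samples. Within groups, the 42 replicate pairs differed beyond counting noise (chi-square over its degrees of freedom 2.42 to 27.6), so each library was counted once.

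The default low-count filter of edgeR 4.0.16 (R 4.3.3) over the 7 groups kept 16325 of 60286 genes, with 99.9% of counts. The quasi-likelihood model held a mean for each group and used every library, with TMM scaling, for 12 comparisons and 3 interactions, and SEs were taken from the fold change and the root of the F statistic. Exon lengths and positions are from GENCODE 29 on GRCh38 and promoters from RefSeq. Alternatives were DESeq2 1.42.0, limma 3.58.1 (voom), other size factors, no filter, only the groups compared, a replicate block and leaving out each library. The procedure was also run on simulated data with 1 spread per gene shared by all groups. In the real libraries the chi-square over its degrees of freedom reached 4.25 between DMSO replicates and 27.6 between RSL3+CLA18:2 replicates. The simulation cannot show how the test behaves where groups differ in spread, and no conclusion is drawn from it.

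In each comparison, values of every library are given for up to 4 called members per compartment with the smallest p and for any called member that moved against most called ones there. CARS1, HARS1 and other members are named beside these with fewer values. Members, lists and promoter motifs were chosen with earlier results of these data known. Figures were drawn with matplotlib 3.10.9 in Python 3.11.15.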

Additional observations from a re-analysis of the deposited data

Results flagged for a closer look

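In 13 of 238 member-and-group sets of 4 libraries, 1 library lay far from the other 3, where chance gives about 1 in 20. In CLA18:2, IARS1 had 428 CPM in replicate 1 against 379 to 381 in the others, SARS2 had 5.64 CPM in replicate 1 against 8.08 to 8.55, and IARS2 had 130 CPM in replicate 2 against 145 to 146. In RSL3+CLA18:2 replicate 4, IARS1 had 412 CPM (others 361 to 368), EARS2 37.3 CPM (others 31.5 to 32.1) and TARS1 336 CPM (others 361 to 364). In RSL3 replicate 4, KARS1 had 310 CPM (others 277 to 281) and EARS2 35 CPM (others 30.7 to 31.0). MARS1 had 330 CPM in CLA18:3 replicate 1 (others 320 to 321) and TARS2 30.7 CPM in LA replicate 2 (others 27.5 to 27.7). In DMSO, NARS1 had 347 CPM in replicate 1 (others 336 to 338), and replicate 3 had 137 CPM for QARS1 (others 142 to 143) and 262 CPM for RARS1 (others 241 to 243). RSL3 replicate 4, CLA18:2 replicate 1, RSL3+CLA18:2 replicate 4 and CLA18:3 replicate 1 were among the 8 libraries low in mitochondrial mRNA, and the part of that in these values was not tested.

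The response to RSL3 differed between groups in 3 tests. It was lower in CLA18:2 cells than in DMSO cells for AARS1 (-0.27) and WARS1 (-0.36), and lower with CLA18:2 than with LA for WARS1 (-0.34), all on the log2 scale. Of all tested genes 3.55% and 3.63% were called in these interactions. AARS1 lost its call in 12 of the 16 cases in which 1 library was left out.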

How the results depend on the processing

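Among members picked by the smallest p or for moving against most, no value reversed. Over these 63 values and 969 alternatives, 880 kept their side of the threshold and 89 lost it. Less firm calls, such as HARS1, NARS1 and CARS2 with CLA18:2 against DMSO, are not among the 63, so these counts do not describe all calls. Called cytosolic genes in RSL3 against DMSO numbered 0, and 1 without the low-count filter or with only the groups compared. For LA against DMSO they were 2, 4 with only the groups compared and 0 to 1 when a single library was left out. For RSL3+CLA18:2 the filter's removal gave 4 mitochondrial genes against DMSO, 5 cytosolic genes against RSL3, and 5 cytosolic and 4 mitochondrial genes against RSL3+LA. Using only the groups compared gave 0 cytosolic genes for RSL3+LA against RSL3, 3 mitochondrial genes for RSL3+CLA18:2 against RSL3, and 5 cytosolic and 2 mitochondrial genes for RSL3+CLA18:2 against RSL3+LA. DESeq2 and limma voom each called 1 mitochondrial gene for RSL3+CLA18:2 against CLA18:2. Interactions called 1 gene for RSL3 with LA without the filter, 5 for RSL3 with CLA18:2 by DESeq2, and 2 between isomers without the filter. Shares of all genes called under each setting are not set beside the counts of this section. Without the filter those shares fell as well, as given above for CLA18:2 and RSL3+CLA18:2 against DMSO. A shift in a count is therefore not read as a result about the members, and its cause was not tested.

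Leaving out single libraries gave 3 to 6 mitochondrial genes for CLA18:2 against DMSO, 1 to 3 cytosolic genes for RSL3+LA against DMSO, 4 to 7 mitochondrial genes for RSL3+CLA18:2 against DMSO, 0 to 1 cytosolic genes for RSL3+LA against RSL3, 3 to 5 mitochondrial genes for RSL3+CLA18:2 against RSL3 and likewise against RSL3+LA, 0 to 1 against CLA18:2, and 1 to 4 genes for the RSL3 with CLA18:2 interaction. Leaving out the 8 libraries low in mitochondrial mRNA, an alternative chosen after seeing the data, gave 3 mitochondrial genes for CLA18:2 against DMSO, 5 cytosolic (4 higher and FARSA lower) and 2 mitochondrial for RSL3+CLA18:2 against DMSO, 1 and 2 against RSL3, 1 and 2 against RSL3+LA, and 2 for the isomer interaction.

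With the replicate number as a block, 1 mitochondrial gene was called for RSL3+CLA18:2 against CLA18:2 and 4 for the RSL3 with CLA18:2 interaction, and the other counts stayed within 1.5 times. The numbers were not taken as pairs: over 9049 genes of at least 10 CPM, a floor set after the data were seen, 28 of 84 correlations between same-numbered libraries exceeded 0.1 (median 0.000795, range -0.405 to 0.405), and 0 of 21 group pairs did so in all 4.

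The log2 ratio of summed cytosolic over mitochondrial levels was 2.80 for CLA18:3, 2.75 for CLA18:2, 2.69 for RSL3+CLA18:2, 2.66 for RSL3 and for RSL3+LA, 2.64 for LA and 2.62 for DMSO. Without GARS1 and KARS1, whose products serve both compartments, these were 2.55, 2.51, 2.45, 2.43, 2.43, 2.42 and 2.40 in the order CLA18:3, CLA18:2, RSL3+CLA18:2, RSL3, RSL3+LA, LA, DMSO. By the median of members they were 2.99, 3.17, 2.85, 2.73, 2.84, 2.80 and 2.75 in that order, so that RSL3 then lay below DMSO.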
